A study of Mus musculus with 6 samples.

Results

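The TRIM family was taken as every gene of the deposited table whose symbol is Trim, a number and at most 1 letter, which gave 68 of 55487 gene rows. Of these, 16 were listed as known to be induced by interferon and 52 were not, and 41 members (11 listed and 30 others) had enough counts to be tested. The cells were macrophages grown over 8 days from the bone marrow of female wild-type BALB/c mice aged 6 to 12 weeks, with medium from L929 fibroblasts added to 20%. For 24 hours they had IL-4 and IL-13, each at 10 ng/mL, which polarizes macrophages towards M2. For the next 24 hours they had either poly(lactide-co-glycolide) nanoparticles at 200 µg/mL (NP, 3 libraries, under the treatment label PEMA, whose meaning is not given) or the vehicle PBS (3 libraries). Both groups therefore carried the cytokines, and no library came from unpolarized macrophages or from cells given interferon. The labels do not say whether the libraries came from separate mice or cultures, so p-values measure only how these samples spread, and that spread may be technical.

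TRIM proteins carry a RING domain, B-boxes and a coiled coil, and most are ubiquitin ligases. The C-terminal part differs between subfamilies and picks the target, most often through a PRY-SPRY domain. Several members are induced by interferon in macrophages and act on viral RNA and DNA sensing or on viral capsids, while others serve transcription, the cytoskeleton or organelle turnover in all cells.

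Total counts ran from 41974957 to 69450411 per library, and all NP libraries were deeper than the deepest PBS library. All 7 macrophage markers were tested, and 5 were lower and 1 higher in NP. Their summed level was 11700 to 12100 CPM (counts scaled to the library total) in PBS and 9230 to 10300 in NP. Marker sums of T cells, B cells, erythroid cells and neurons were at most 1.62 CPM in any library. Those of skeletal muscle, fibroblasts and neutrophils were at most 1.86, 1.45 and 1.11 CPM, with 1 fibroblast and 1 neutrophil marker higher in NP. Dendritic cell sums were 4.0 CPM in PBS 2 and 3.45 in PBS 3, against 1.64 to 2.69 in the other libraries. PBS 2 and PBS 3 stood apart: their genes for vomeronasal and olfactory receptors summed to 135.8 and 150.4 CPM, while the remaining 4 libraries had 9.62 to 12.4 CPM. The T cell marker sum followed them, at 1.62 and 1.14 CPM against at most 0.0178, and the part of either in the results below was not tested. In bulk RNA, fewer cells of a type and less RNA per cell cannot be told apart.

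The most abundant TRIM transcripts in these macrophages were Trim35, Trim8, Trim47, Trim28 and Trim25, on the scale of CPM per kb of exon, which allows levels of different genes to be set side by side. Trim35, a ligase that also binds the pyruvate kinase PKM2, stood at 56.4 CPM per kb in PBS and 59.6 in NP. Trim8, which acts on SOCS1 and on TNF signalling, stood at 40.7 and 35.2. Trim47, Trim28 (KAP1, the corepressor of zinc finger proteins) and Trim25 (the RIG-I ligase) followed at 35.9, 35.7 and 35.5 CPM per kb in PBS, closer to each other than their spread between libraries. In NP, Trim25 (36.9) and Trim28 (34.3) stood above Trim47, which was at 25.8. Among the interferon-listed genes Trim25 was followed by Trim30a, Trim56, Trim26 and Trim12c, at 9.37 to 11.5 CPM per kb in PBS. At the low end Trim29, Trim6, Trim17, Trim43c, Trim66 and Trim30b were below 0.25 CPM per kb in PBS.

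**Figure D1:**
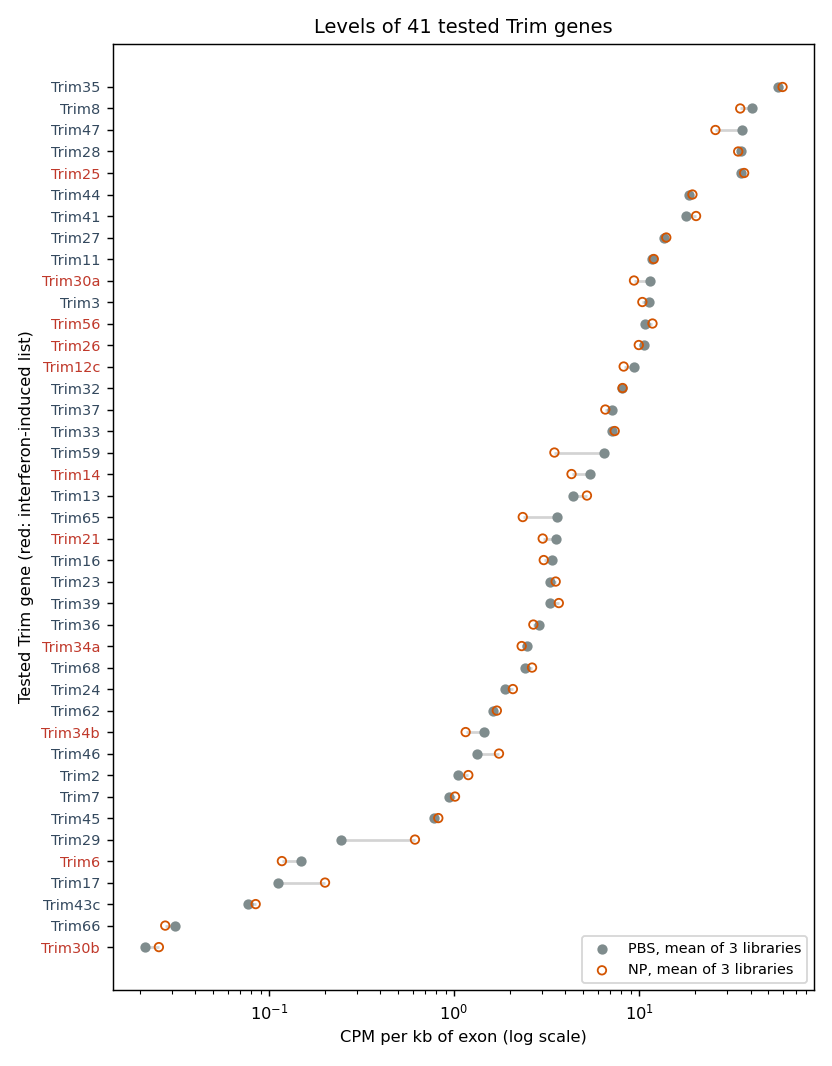
Levels of the 41 tested Trim genes in CPM per kb of exon on a log scale, as the mean of 3 PBS libraries (filled grey) and of 3 NP libraries (open orange), ordered by PBS. The order was led by Trim35 at 56.4, and the wide gaps between the groups are those of Trim47, Trim59, Trim65, Trim29 and Trim17.

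Nanoparticles were followed by small shifts in both directions across the family. With limma voom and a Benjamini-Hochberg adjusted p under 0.05 over all genes tested, 10 of the 41 tested members fell and 9 rose. That is close to the whole table, where 41.2% of 14478 genes were called, 21.4% lower and 19.8% higher. The median log2 fold change (NP minus PBS) was 0.03 over the tested members and -0.00 over all genes. Only Trim29 passed with a change of at least 2-fold, against 4.02% of all genes. All NP libraries lay below all PBS libraries in 13 members and above them in 9, against 26.8% and 26.5% of all genes. With PBS 1 as the only PBS library, 6 members of 43 tested were lower and 1, Trim29, was higher, while 19.7% of all genes were called.

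**Figure D2:**
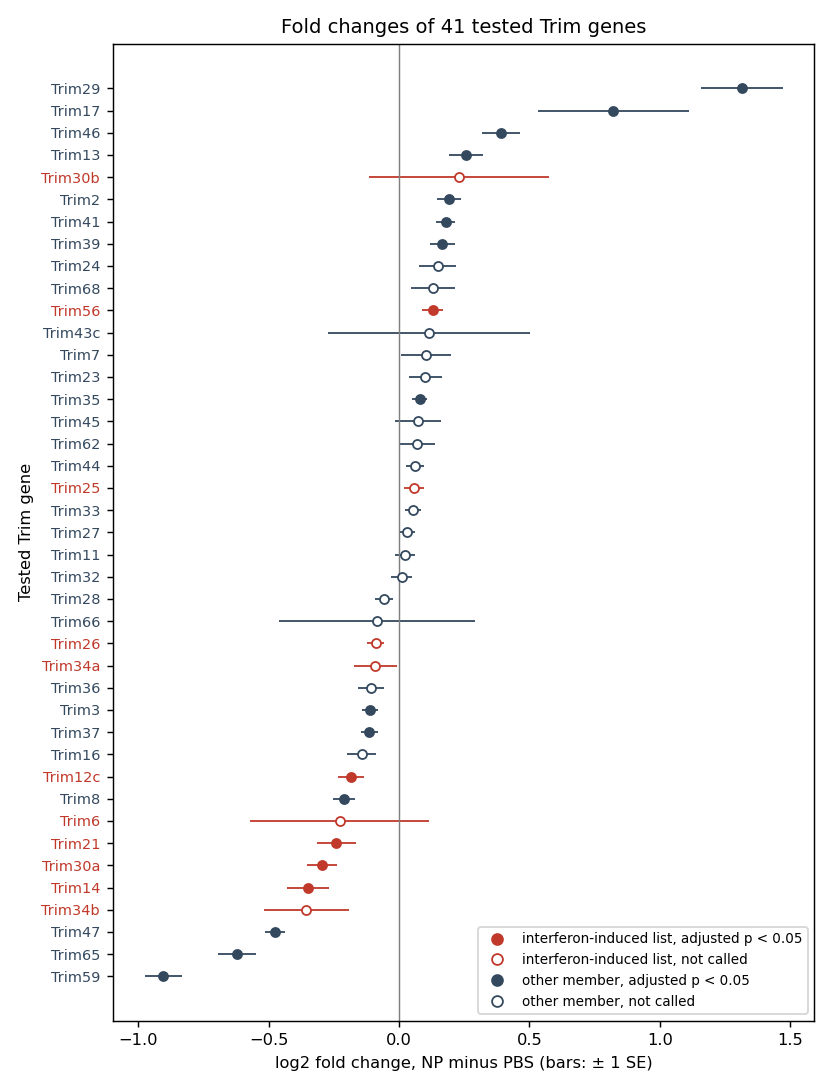
Log2 fold change (NP minus PBS) of each tested Trim gene with its standard error, from limma voom on 3 against 3 libraries. Red marks the interferon-induced list, and filled points passed an adjusted p of 0.05. Values run from -0.90 for Trim59 to 1.31 for Trim29, with most points near zero.

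Among interferon-induced members 4 of 11 tested fell, 1 rose and 6 did not pass. The share called was 45.5%, near the 41.2% of all genes, and over all genes 21.4% fell and 19.8% rose. Their median log2 fold change was -0.18, against 0.07 in the 30 other tested members, of which 6 fell and 8 rose. With sample quality weights the medians were -0.09 and 0.03, and without PBS 3 the median of the others was 0.04. Of the others 5 rose, in place of 8, without PBS 3 or NP 3, and 1 with PBS 1 alone for PBS. Whether the lists differ was not tested. The listed members that fell were Trim14, Trim30a, Trim21 and Trim12c, and the 1 that rose was Trim56. Their changes were modest, and no tested listed member moved by 2-fold. In the fits that left out NP 1 or NP 3, or kept PBS 1 as the only PBS library, 2 listed members fell in place of 4. The summed level of the 11 listed genes was 506 ± 18.0 CPM in PBS and 499 ± 12.6 CPM in NP (SD, n = 3 each), and Trim25 and Trim56 were its main contributors. For this sum, the levels per kb of exon and the single genes below, CPM refers to library sizes over tested genes scaled by trimmed-mean (TMM) factors.

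Trim30a, a mouse ligase that targets the TAB2 and TAB3 adaptors of NF-kappa-B signalling, had 49.7, 46.7 and 45.2 CPM in the libraries PBS 1, PBS 2 and PBS 3, and 35.7, 41.2 and 38.7 CPM in NP 1, NP 2 and NP 3. All 3 NP libraries were below all PBS libraries, with NP 2 the nearest to them. The log2 fold change was -0.30 (SE 0.06, limma adjusted p = 0.00273), and it passed in all 14 alternative settings. Trim14, an adaptor of the mitochondrial antiviral protein MAVS, had 24.6, 21.9 and 24.2 CPM in PBS and 16.8, 21.1 and 18.3 CPM in NP. The groups did not overlap, but NP 2 lay just under PBS 2. Its log2 fold change of -0.35 (SE 0.08, limma adjusted p = 0.00729) was lost without NP 3 (adjusted p = 0.0611) and with PBS 1 alone (0.0551).

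Trim21, the cytosolic receptor for antibody Fc, had 12.7, 14.4 and 12.7 CPM in PBS and 10.6, 12.2 and 10.8 CPM in NP. The highest NP library was close under the lowest PBS library. Its log2 fold change of -0.24 (SE 0.07, limma adjusted p = 0.0274) did not pass without PBS 2 (adjusted p = 0.0867), without NP 1 or NP 3 (both 0.129) or with PBS 1 alone (0.227). Trim12c, a relative of TRIM5 that acts with TRAF6, went from 36.4, 35.6 and 33.1 CPM in PBS to 29.5, 31.0 and 32.1 CPM in NP. The groups were again separate, and the log2 fold change of -0.18 (SE 0.05, limma adjusted p = 0.0143) was lost without PBS 1 (adjusted p = 0.081) or NP 1 (0.0824).

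Trim25 and Trim56, the most abundant listed genes in CPM, did not follow this direction. Trim25, which adds ubiquitin to the RNA sensor RIG-I and ISG15 to other proteins, had 215, 195 and 203 CPM in PBS and 209, 215 and 213 CPM in NP. The NP values lay within the PBS range, and the log2 fold change was 0.06 (95% interval -0.03 to 0.14, limma adjusted p = 0.275). Without PBS 1 it was 0.11 and passed (adjusted p = 0.0482). Trim56, an RNA-binding ligase linked to STING, had 106.6, 98.2 and 96.0 CPM in PBS and 109, 109.9 and 109.8 CPM in NP. The NP libraries were all higher, by 0.13 on the log2 scale (SE 0.04, limma adjusted p = 0.03). That call was lost without PBS 2 (adjusted p = 0.109), PBS 3 (0.122), NP 1 (0.0665), NP 2 (0.0607) or NP 3 (0.101), and with PBS 1 alone the value was 0.03 (adjusted p = 0.631).

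Trim26, a ligase of the MHC region that acts on IRF3, was at 72.0, 74.1 and 72.3 CPM in PBS and at 66.0, 69.15 and 70.0 CPM in NP. The groups did not overlap, and the log2 fold change of -0.09 had limma adjusted p = 0.0599. Trim34a (-0.09, limma adjusted p = 0.405) and Trim34b (-0.36, limma adjusted p = 0.109) had overlapping groups. They are near copies: 29.5% of the 75-base stretches of Trim34a transcripts and 42.5% of those of Trim34b occur in another gene, so the division of reads between them is uncertain. Trim6, which makes unanchored ubiquitin chains for the kinase IKK-epsilon, had values under 1 CPM in every library and a log2 fold change of -0.23 (limma adjusted p = 0.632). Trim30b, at most 0.248 CPM, had 0.23 (limma adjusted p = 0.632).

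Of the 16 listed genes, 5 were below the limit for testing. Trim12a had 0 counts in all libraries, Trim5 4 counts in total, Trim38 19 and Trim30c 49. Trim30d had 7, 9 and 10 counts in the PBS libraries and 1, 1 and 0 counts in the NP libraries. It was low everywhere but higher in each PBS library than in any NP library, a ratio of PBS to NP of 16.6 per total count, with an exact 95% interval of 4.17 to 145.0 for counting error only. Without the low-count filter Trim30d had a log2 fold change of -3.41 (limma adjusted p = 0.00457). In fits without 1 NP library, where it passed the filter, adjusted p was 0.0581 (NP 1), 0.0453 (NP 2) and 0.106 (NP 3), and without PBS 1 it was 0.00147. It entered the fits that left out a library only through the PBS libraries, where it was high. There the filter chose it by the difference tested, and the p-values of those fits support nothing. The value without the filter rests on 26 counts in PBS and 2 in NP, and nothing is concluded from it. Of the 75-base transcript stretches of Trim30d, 5.4% are shared with another gene, Trim30a first.

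**Figure D3:**
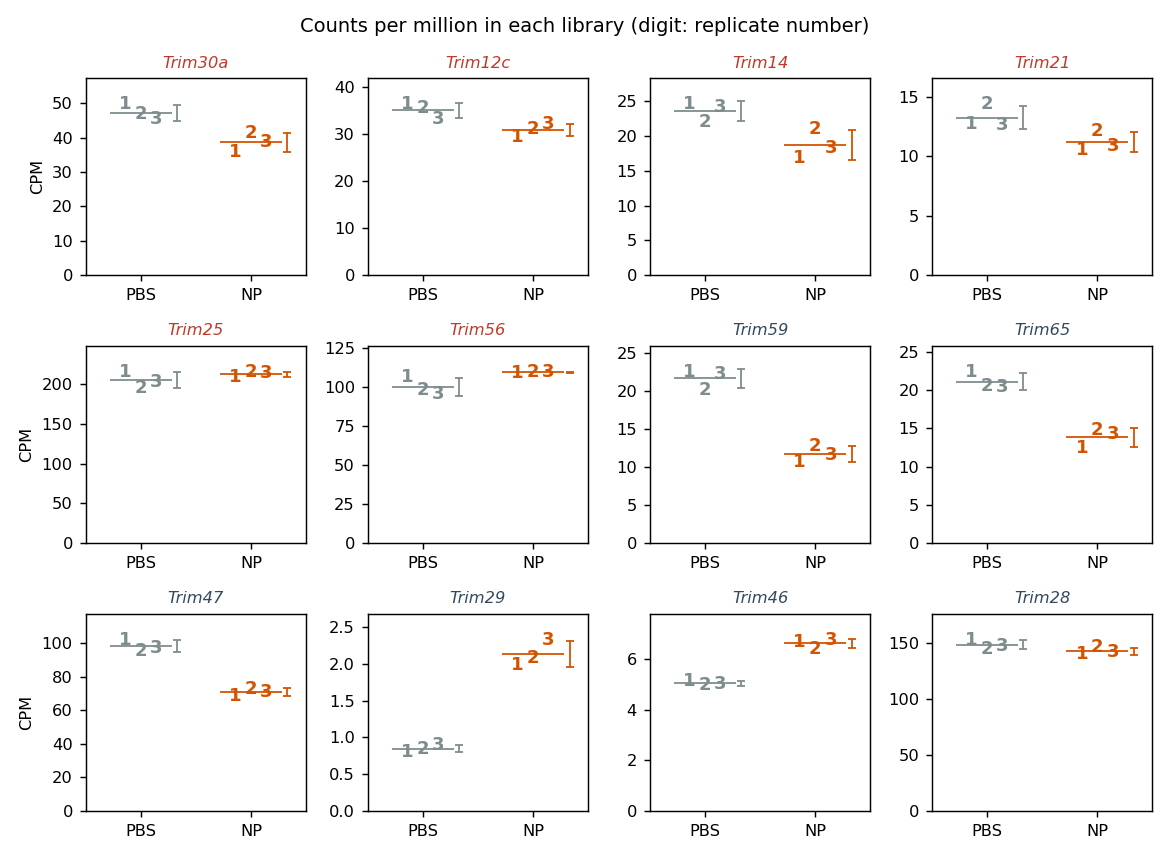
CPM of 12 Trim genes in each library. Digits are replicate numbers, lines are means and bars are 1 SD of 3 libraries; red titles mark the interferon-induced list. Trim30a, Trim12c, Trim14 and Trim21 are lower in all NP libraries, Trim25 overlaps, and Trim59, Trim65, Trim47 and Trim29 have wide gaps between the groups.

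Promoter windows were compared because many interferon-induced genes carry an interferon-stimulated response element, a short DNA motif near the start site. Its core, GAAA, any 2 bases and GAAA again, was searched on both strands (TTTC, any 2 bases and TTTC when read from the other) in windows of 250 bases before to 50 bases after each annotated start, from RefSeq on GRCm38.p6, where 53 members had a window. It occurred in 8 of 15 listed members with a window and in 1 of 38 others (Trim2, at an alternative start), against 3.99% of 27025 genes. No other motif was searched. The windows come from the reference genome, not from Balb/c.

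Upstream stretches with the match in capitals are shown for Trim30a, which fell, and for the little expressed Trim30d beside it. Trim12c, which fell, is set beside the barely expressed Trim5, and Trim26 follows. They are 60 bases long, 5′ to 3′ on the gene's strand, at chr7:104465194-104465253 (minus), chr7:104507850-104507909 (minus), chr7:104353350-104353409 (minus), chr7:104288107-104288166 (minus) and chr17:36836962-36837021 (plus).
Trim30a: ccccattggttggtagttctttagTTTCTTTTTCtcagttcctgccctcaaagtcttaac
Trim30d: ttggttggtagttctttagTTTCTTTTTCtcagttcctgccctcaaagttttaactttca
Trim12c: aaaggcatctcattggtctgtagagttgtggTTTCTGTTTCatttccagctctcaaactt
Trim5: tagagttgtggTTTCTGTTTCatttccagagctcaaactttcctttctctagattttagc
Trim26: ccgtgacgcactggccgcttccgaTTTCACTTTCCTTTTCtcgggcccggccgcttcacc

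The windows of Trim30a and Trim30d share an identical run of 118 bases that holds the match, and those of Trim5 and Trim12a one of 241 bases that also holds it. Trim12c shares a run of 71 bases, without the match, with each of Trim5 and Trim12a. The 8 listed genes with a match therefore do not have 8 unrelated sequences. Trim30a also has a match at base 3 after a second annotated start, which is not printed. In Trim26 and Trim21, 2 overlapping matches lie side by side. In Trim21, Trim34a and Trim12a the match lies after the start site, at base 14, 11 and 11 of the transcript, at chr7:102565448-102565475 (minus), chr7:104244461-104244482 (plus) and chr7:104315470-104315491 (minus).
Trim21: tgagagGAAACTGAAAGTGAAAtttgga
Trim34a: ttggagTTTCAGTTTCttttct
Trim12a: ttgtggTTTCTGTTTCatttcc

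The 60 bases before the start of Trim25 (chr11:88999343-88999402, plus) and Trim56 (chr5:137116208-137116267, minus) hold no exact match, nor do their whole windows. The last 10 bases printed for Trim25 differ from the match of Trim34a only in their first base. Other listed genes without a match, Trim34b and Trim6 among them, are not printed.
Trim25: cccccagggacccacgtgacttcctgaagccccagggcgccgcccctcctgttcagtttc
Trim56: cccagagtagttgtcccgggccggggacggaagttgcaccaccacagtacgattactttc

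The 5 tested listed genes with a match (Trim12c, Trim21, Trim26, Trim30a, Trim34a) had a median log2 fold change of -0.18, and 3 fell and 0 rose. The 5 with a window and no match (Trim6, Trim25, Trim30b, Trim34b, Trim56) had a median of 0.06, and 0 fell and 1 rose. Of these, Trim34b had -0.36, the lowest value of the 11 tested listed genes. Trim6 and Trim30b were under 1 CPM with an SE of 0.34 each, wider than either median. Whether a match goes with the change was not tested. Trim14 had no window. In the whole table, 140 of 400 tested genes with a match fell and 73 rose (median -0.08), against 2254 and 2192 of 9927 genes with a window and no match (median 0.00). A match is a run of letters and does not show that a factor binds there.

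Among tested members, the largest fold changes in both directions lay outside the interferon list. Trim59, an ER membrane ligase, had the lowest fold change of the tested members, from 22.5, 20.2 and 22.3 CPM in PBS to 10.7, 12.8 and 11.5 CPM in NP. NP libraries held 0.534 of the PBS level, with a wide gap between groups (log2 -0.90, SE 0.07, limma adjusted p = 3.16e-05). Trim65, a ligase of the RNA sensor MDA5, had 22.4, 20.5 and 20.5 CPM in PBS and 12.4, 14.8 and 14.3 CPM in NP (log2 -0.62, SE 0.07, limma adjusted p = 1.84e-04). Trim47, a PRY-SPRY ligase, had 102, 95.2 and 97.4 CPM in PBS and 68.2, 72.9 and 70.9 CPM in NP (log2 -0.48, SE 0.04, limma adjusted p = 3.16e-05). In each of the 3 genes NP 2 was the NP library nearest to PBS.

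Trim47 and Trim65 are neighbours on chromosome 11, at 116105752 to 116127210 and 116121846 to 116131128 (GRCm38, GENCODE M21), on the same strand and overlapping. Of their 75-base transcript stretches 5.66% and 2.62% are shared with each other, so reads from the overlap cannot be told apart between them. Trim8 was lower as well, at 156.5, 144.6 and 151.7 CPM in PBS and 127.3, 136.8 and 127.35 CPM in NP (log2 -0.21, SE 0.04, limma adjusted p = 0.0031). Trim59, Trim65, Trim47 and Trim8 passed in all 14 alternative settings. Trim37, a ligase of centrosomes and peroxisomes, and Trim3, an NHL-repeat ligase, had log2 values of -0.12 and -0.11, with calls lost in 6 and 8 of the 14 settings. For Trim37 these included the fits without PBS 3 (adjusted p = 0.0706) and without NP 3 (0.0925). For Trim3 they included those without PBS 1 (0.0907), NP 1 (0.0652), NP 2 (0.0677) and NP 3 (0.0509).

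Cell cycle genes moved the same way as Trim59: 19 of 20 listed genes fell, against 21.4% of all genes, with a median of -1.13. The part of that shift in Trim59, Trim37 or any other member was not tested.

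Trim29 was the member with the highest fold change. It lacks a RING domain and is known from epithelia and from innate responses in lung macrophages. It had 0.808, 0.844 and 0.896 CPM in PBS and 1.99, 2.09 and 2.33 CPM in NP, which rests on 46, 36 and 46 counts against 135, 126 and 141. Every NP library was more than 2-fold above every PBS library (log2 1.31, SE 0.16, limma adjusted p = 2.07e-04), also in all 14 settings as a call. PBS 1, with 12.4 CPM in olfactory and vomeronasal genes, was the lowest.

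Smaller increases followed. Trim46, which bundles axonal microtubules, had 5.16, 4.97 and 5.03 CPM in PBS and 6.69, 6.43 and 6.78 CPM in NP (log2 0.39, SE 0.07, limma adjusted p = 0.00239). Trim13, an ER-anchored ligase of protein degradation, had 7.48, 7.13 and 7.03 CPM in PBS and 8.91, 8.45 and 8.50 CPM in NP (log2 0.26, SE 0.06, limma adjusted p = 0.0117). In both the groups were separate, and neither call held when PBS 1 stood alone for PBS (adjusted p = 0.076 and 0.207). Trim13 overlaps Dleu2 and Trim46 overlaps Krtcap2 on the opposite strand, and reads of such partners cannot be told apart where strand was not counted. The same holds for listed members that fell: Trim14 overlaps Nans, Gm22247 and Gm16731, and Trim30a overlaps Gm25405, on the opposite strand. Trim12c overlaps Gm27995 on its own strand.

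Trim2, a ligase of neurofilament light chain, Trim41, which binds protein kinase C, and Trim39, which stabilizes the BAX activator MOAP-1, rose by 0.19, 0.18 and 0.17 on the log2 scale (limma adjusted p = 0.00936, 0.00408 and 0.0182). The Trim39 call was lost without PBS 3 (adjusted p = 0.0762) or NP 3 (0.0547). With PBS 1 alone for PBS, Trim2, Trim41 and Trim39 had log2 values of 0.22, 0.18 and 0.10, and these calls were lost. Trim41 overlaps Rack1 on the opposite strand. The call of Trim35 (0.08, limma adjusted p = 0.0491) was lost in 7 of 14 settings, among them without PBS 1 (adjusted p = 0.0754), PBS 2 (0.128), PBS 3 (0.0532) and NP 3 (0.0779). The remaining member that rose, Trim17, is named after its values were seen. It had 0.281 to 0.527 CPM in PBS and 0.579 to 0.926 CPM in NP (limma adjusted p = 0.0463). Its call was lost in 10 of 13 settings, without PBS 2 (adjusted p = 0.154), PBS 3 (0.0978), NP 1 (0.241), NP 2 (0.161) or NP 3 (0.0785) among them, and it overlaps the histone gene Hist3h2a on its own strand.

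Of the 4 nuclear PHD-bromodomain members 0 passed by limma voom, and 0 had an unadjusted p under 0.05. Trim28 had 153, 145 and 148 CPM in PBS and 139.7, 145.9 and 142 CPM in NP, with overlapping groups (log2 -0.06, 95% interval -0.13 to 0.02, limma adjusted p = 0.193). Trim33, which acts on SMAD4, had 0.05 (95% interval -0.02 to 0.13). Trim24, a nuclear receptor cofactor, had 0.15 (95% interval -0.01 to 0.30, limma adjusted p = 0.121) and passed in 3 of 14 settings. One of these was the fit without NP 2 (adjusted p = 0.0352). Among the partners of TRIM28, 5 of 9 tested fell and 0 rose, with a median of -0.12, against 21.4% and 19.8% of all genes. The heterochromatin proteins Cbx5 and Cbx3 had log2 values of -0.49 and -0.44, and the methyltransferase Setdb1 had 0.01 (limma adjusted p = 0.821). Trim27 (95% interval -0.04 to 0.10), a ligase of the WASH and retromer pathway, and Trim32 (-0.08 to 0.10), an NHL-repeat ligase of muscle and brain, had log2 values of 0.03 and 0.01 and did not pass.

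By C-terminal class, PRY-SPRY members fell in 6 of 23 and rose in 4, with a median of 0.02. The share called was 43.5%, near the 41.2% of all genes, of which 21.4% fell and 19.8% rose. The classes with COS box, NHL or filamin repeats, and with transmembrane, MATH or ARF domains had 2 to 4 tested members each. In that order they held 0 lower and 1 higher, 1 lower and 1 higher, and 2 lower and 1 higher. The 4 tested members with no C-terminal domain of these kinds held 1 lower and 2 higher, Trim29 among them. By position, 10 listed genes lie in 289 kb of chromosome 7 at 104218793 to 104507849. Of the 6 tested there 2 fell and 0 rose, with a median of -0.21, against 2 lower and 1 higher of 5 listed genes elsewhere, with a median of -0.09. The share called was 33.3% in the cluster and 60.0% elsewhere, against 41.2% of all genes. Within the cluster Trim34a, Trim34b, Trim5 and Trim12c share 16.9% or more of their 75-base stretches with another gene, and the other 6 share at most 5.4%.

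Other genes of the interferon response and of ubiquitin and ISG15 transfer were counted from lists chosen with earlier results of these data known. Over all genes 21.4% fell and 19.8% rose. Interferon-induced effectors fell in 23 of 29 and rose in 0, with a median of -0.47. Mx1, an antiviral GTPase, had a log2 value of -1.58, and Ifit3 of -1.82. The listed Trim genes had a median of -0.18, and the difference between the lists was not tested. In interferon receptor and sensing genes 14 of 23 fell and 3 rose (median -0.18). The sensors that TRIM25, TRIM65 and TRIM56 act on were lower: Ddx58 (RIG-I) had -0.62, Ifih1 (MDA5, also in the effector list) -0.18 and Sting1 -0.47. Mavs had -0.00 (limma adjusted p = 0.995), and Ticam1, Zc3hav1 and Jak1 rose by 0.29, 0.25 and 0.15.

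Of 16 ubiquitin and ISG15 enzymes, 7 fell and 4 rose (median 0.01), against 21.4% and 19.8% of all genes. The 3 enzymes of ISG15 conjugation were lower, with log2 values of -0.46 for Uba7, -0.23 for Herc6 and -0.19 for Ube2l6. For Ube2l6 the groups overlapped (limma adjusted p = 0.0437). Isg15 itself, of the effector list, had -0.22 with overlapping groups and did not pass (limma adjusted p = 0.308). Ube2w, which places the first ubiquitin for TRIM21 and TRIM5, rose by 0.22, and Ube2n, the enzyme of lysine-63 chains, had -0.10 (limma adjusted p = 0.0295). Of 6 listed TRIM proteins under other symbols, 3 were tested: Mid1 (TRIM18), Pml (TRIM19) and Mefv (TRIM20). Mid2, Triml1 and Triml2 were below the limit for testing. Mid1, a microtubule-bound ligase, rose from 4.22 ± 0.207 to 8.33 ± 0.509 CPM (SD, n = 3 each; log2 0.97, limma adjusted p = 4.44e-05). The interferon-induced Pml had -0.14 (limma adjusted p = 0.18), and Mefv had -0.58 (limma adjusted p = 0.293).

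**Figure D4:**
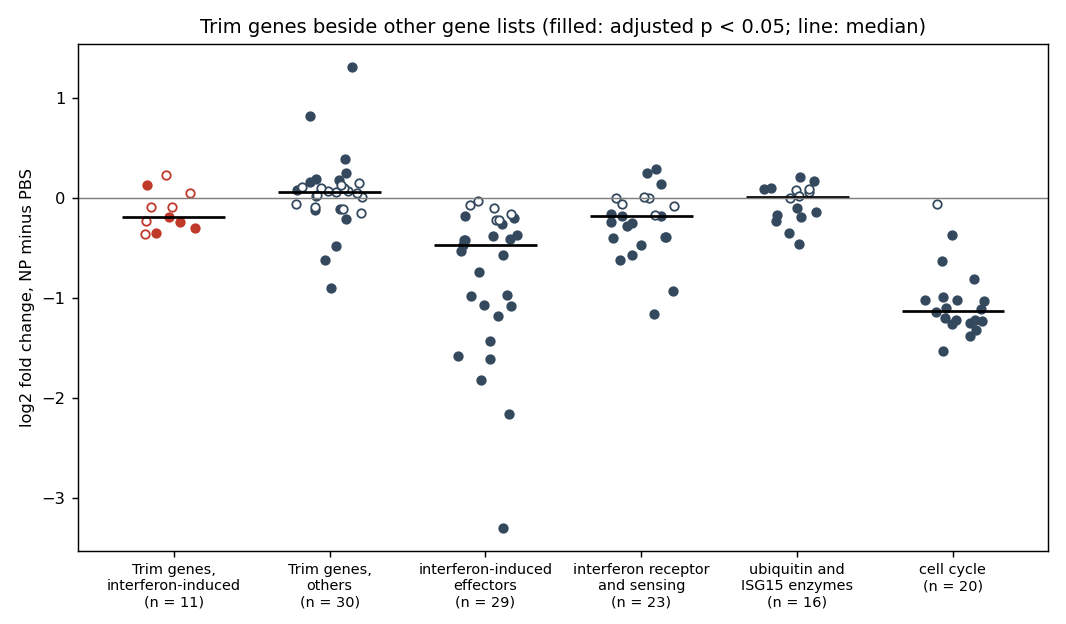
Log2 fold change (NP minus PBS) of each tested gene in 6 lists, with filled points for adjusted p under 0.05 and a line at the median. Medians are -0.18 for interferon-induced Trim genes, 0.07 for the others, -0.47 for interferon-induced effectors and -1.13 for cell cycle genes.

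Of the 27 members below the limit for testing, 7 had 0 counts in every library (Trim10, Trim12a, Trim31, Trim40, Trim42, Trim61, Trim80). A count of 0 allows up to 0.0432 to 0.0715 CPM per library (3 counts of the total). The other 20 had 1 to 49 counts in total. They include the muscle genes Trim54, Trim55, Trim63 and Trim72. Trim71, a stem cell NHL-repeat protein, had 0, 20 and 19 counts in PBS 1 to 3 and 0 in each NP library. Trim9, a brain ligase, had 0, 12 and 8 counts in PBS and 2, 1 and 0 in NP. In both, the counts were concentrated in PBS 2 and PBS 3, the libraries with olfactory receptor counts, and PBS 1 was at 0. In the fit without PBS 1, Trim71 passed the filter and the test (log2 -5.72, limma adjusted p = 1.48e-04), a call that rests on those libraries.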

How the data were processed

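The authors deposited 1 table of gene-level RSEM expected counts for the 6 libraries, not scaled for depth, and all values were whole numbers. Per the submitters' processing notes, the build was GRCm38 and the tools were STAR 2.7.8a, RSEM 1.3.3, cutadapt 2.3, MultiQC 1.7 and FastQC 0.11.8, with no role stated. Sources used here do not state the strand setting or annotation release. RSEM divides reads between similar genes. An automatic check of the unit could not read the table's layout, so edgeR (the planned main test) and DESeq2 were not run, and limma voom (limma 3.58.1, R 4.3.3), the planned fallback, took their place, on the group alone.

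Genes needed 0.171 CPM (10 counts at the median depth) in 3 libraries and 15 counts in total, which left 14478. TMM factors were 0.979 to 1.02, and calls had a Benjamini-Hochberg adjusted p under 0.05. The fit was run on simulated counts with the same spread beyond counting noise in all genes and libraries. The libraries here spread unevenly, so that run does not show how the fit performs on them. Pairs of libraries within a group differed by more than sampling noise (chi-square per gene 5.0 to 19.9). Coordinates, exonic lengths and shared 75-base stretches came from GENCODE M21, which held all 68 members. Promoter windows came from RefSeq (GRCm38.p6), matched by symbol.

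Members and lists were chosen with earlier results of these data known. Named were all interferon-listed members, up to 8 of the largest increases and decreases each among the others (adjusted p under 0.05, at least 1 CPM, no overlap), which gave 7 and 6, and a fixed panel of 10.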

Additional observations from a re-analysis of the deposited data

How the results depend on the processing

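Of the 19 called members, 6 (Trim8, Trim29, Trim30a, Trim47, Trim59, Trim65) passed in all 14 alternative fits, 13 lost their call in at least 1, and 0 changed direction as a call. Leaving out each library in turn gave 6 to 10 members lower, 5 to 9 higher, 2 to 5 interferon-listed members lower, 0 to 2 listed members higher and 5 to 8 other members higher. The low ends came without NP 3, without PBS 3 (5 higher) and, for listed members lower, without NP 1 or NP 3. The high ends of 10 members and 5 listed members lower count Trim30d, and without PBS 1 also Trim71. Both genes entered such fits only through PBS libraries, where they were high, so their calls there support nothing. With PBS 1 as the only PBS library, whose spread is then taken from the NP group, 6 members were lower and 1 higher, with 2 listed members lower, 0 listed members higher and 1 other member higher. The count of listed members higher was 0 without the low-count filter, with the replicate block and without both libraries numbered 2. A wider interferon list also held Trim8, Trim35, Trim58 and Trim69. With that list 5 of 13 tested listed members were lower and 2 higher. Of the 28 others 5 were lower and 7 higher, against 21.4% and 19.8% of all genes. Without the chromosome 7 cluster, the main list had 2 members lower. Without PBS 3 the median of the other members was 0.0369. Sample quality weights moved the median of the other members to 0.027 and that of the listed members to -0.094. The replicate block gave 8 members lower and 6 higher. Same-numbered libraries had correlations of deviations of -0.0673, -0.157 and -0.122, and unlike-numbered libraries had -0.0507 to 0.167. With 3 libraries per group these values cannot show whether the numbers pair the samples. Median-of-ratios factors, the strict filter and limma-trend changed no count by over 1.5 times. edgeR and DESeq2, listed as alternatives, were not run. The causes of these shifts were not tested. Depth limits the 27 untested members, of which 20 had at most 49 counts.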
